A study of Rattus norvegicus with 12 samples.

Results

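The kidney's sugar and monocarboxylate carriers of the Slc5 and Slc2 families were followed here as 10 genes: Slc5a1, Slc5a2, Slc5a3, Slc5a8, Slc5a10, Slc5a11, Slc5a12, Slc2a1, Slc2a2 and Slc2a5. Every probe whose RefSeq transcript belongs to one of these genes was taken, which gave 20 of the 61657 probes on the array, and 10 of the 15284 genes that the probes name. Membership follows from gene symbol and transcript, with no threshold on a measured value. The genes were chosen with earlier results of these data known. All 20 probes passed the filter on dim probes and were well above background on all 12 arrays.

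The samples are renal cortex from 12 males of the rat stock Sprague-Dawley (Crl:CD(SD)), bought at 5 weeks of age, each hybridised to 1 single-colour Agilent array. Rats received corn oil or bromodichloromethane (BDCM), a trihalomethane formed when drinking water is chlorinated, at 200 mg/kg per day, for 4 weeks, and the cortex was collected 24 h after dosing ended. One experiment (B92) bled the rats under CO2-O2 and the other (B103) under isoflurane, with 3 oil and 3 BDCM rats in each. No genotype or allele was given; all rats share the stock, the sex and the length of dosing, and the values are those of whole cortex. The labels call the 3 rats of a group biological replicates. Anaesthesia, experiment, slide and scan day cannot be told apart between the experiments. Within the experiments treatment was partly tied to slide and scan day. Under CO2-O2, slide 1 held the 3 oil rats and BDCM rat 2, and slide 2, scanned on another day, BDCM rats 1 and 3. Under isoflurane, slide 3 held oil rats 1 and 2, and slide 4 oil rat 3 and BDCM rats 1 and 2. BDCM rat 3 was on slide 5, scanned on another day.

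Most of the sodium-coupled Slc5 carriers followed here, though not Slc5a3, sit on the apical face of the proximal tubule. They pull filtered glucose, other sugars, myo-inositol, lactate and other short monocarboxylates into the cell against their gradient. They use the sodium gradient that the basolateral Na+ pump maintains. Carriers of the Slc2 family (GLUT) move hexoses down their gradient, in the tubule mostly across the basolateral face back to the blood. Slc5a2 (SGLT2) with Slc2a2 (GLUT2) in the early proximal tubule, and Slc5a1 (SGLT1) with Slc2a1 (GLUT1) further along, are the usual pairs for glucose recovery.

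The apical and basolateral glucose carriers of the early proximal tubule went in opposite directions with BDCM. Slc5a2 fell by about 0.8 on the log2 scale and Slc2a2 rose by about 1.1, on all 3 probes of each gene and in both experiments. Slc5a8, Slc5a10 and Slc5a11, carriers for monocarboxylates, mannose and fructose, and myo-inositol, fell as well, Slc5a8 the most. Slc5a3 and Slc2a5 did not pass the test for a BDCM effect, Slc5a1 and Slc5a12 passed it on 1 of their 2 probes, and Slc2a1 passed with a small rise.

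Levels are given as log2 of the processed spot signal minus log2 of the array's 75th percentile signal, so a level of 0 is the 75th percentile of that array. Such levels are not comparable between probes, and only differences between rats on the same probe are used. An effect is the mean of the BDCM rats minus the mean of the oil rats on this scale, from limma fitted to all 43275 probes that passed the filter, with its standard error (SE) from the spread within the 4 groups of 3. A probe is called where its p, adjusted by the method of Benjamini and Hochberg over all those probes, is under 0.05. "Mean effect" stands for the average of the effects in both experiments. The probes of a gene are numbered by their mean signal, brightest first.

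The 75th percentile signal ran from 1079.53 to 1187.26 intensity units on the CO2-O2 arrays and from 1232.18 to 1476.46 on the isoflurane arrays. Saturated probes numbered 0 on each CO2-O2 array and 3 to 6 on each isoflurane array. Over all arrays, 67.4 to 72.5% of probes were well above background. Rats differed in transcripts typical of liver. Albumin (Alb), well above background on 8 of 12 arrays, ran from -1.44 to 1.66 on the log2 level scale in the CO2-O2 rats and from -8.07 to -0.69 in the isoflurane rats, where BDCM rat 1 (-0.69) and oil rat 3 (-2.97) were highest. Mean effects are given with these 2 rats and, in a later paragraph, without them. All 8 proximal tubule markers on the list, among them Lrp2, Cubn and Aqp1, were measured well above background on all 12 arrays, so the labelled tissue carried the markers of the segment where most of the carriers work.

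Of the 20 probes, 13 were called for the mean effect of BDCM, 4 of them higher and 9 lower, against 38.3% of all probes called, 17.9% higher and 20.4% lower. By gene, 4 of the 10 had every probe lower, 2 had every probe higher, 2 had 1 probe of 2 lower and 2 had none called. With 1 probe per gene, the brightest, 7 of 10 were called against 40.3% of 12221 genes, 19.4% higher and 20.9% lower. The median effect over the 20 probes was -0.37 on the log2 scale, and over all probes it was -0.04.

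**Figure D1:**
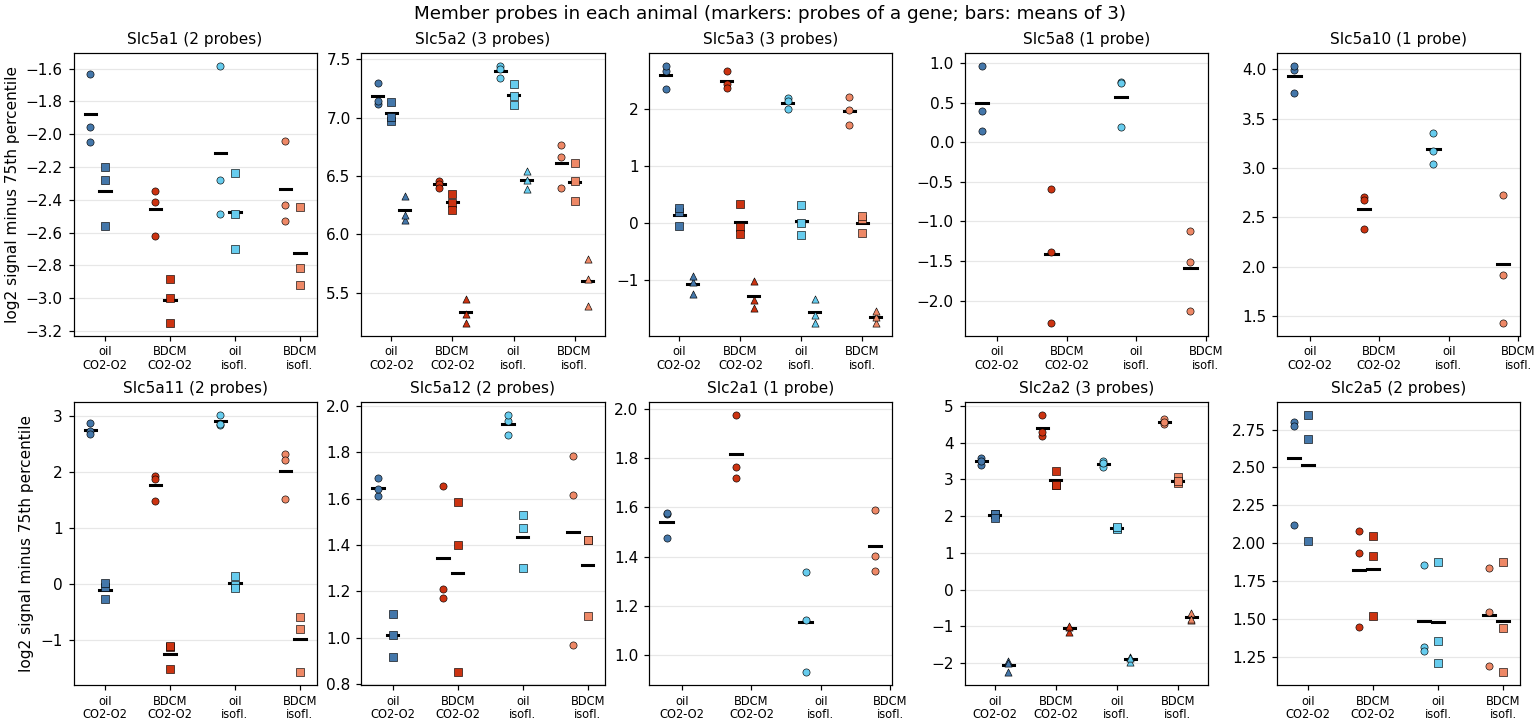
Each panel is 1 gene; points are single rats, marker shapes are the gene's probes (circle, square and triangle for probes 1 to 3), bars are means of the 3 rats, and the vertical axis is the log2 signal minus the array's 75th percentile. Slc5a2, Slc5a8, Slc5a10 and Slc5a11 sit lower in all 6 BDCM rats than in the oil rats of the same experiment, and Slc2a2 sits higher; vertical positions of different probes are not comparable.

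Among the glucose cotransporters, Slc5a2 encodes SGLT2, the high-capacity carrier that recovers most of the filtered glucose and the target of the gliflozin drugs. On probe 1 the oil rats of the CO2-O2 experiment had log2 levels of 7.12, 7.14 and 7.29 and the BDCM rats 6.46, 6.43 and 6.39. Under isoflurane the oil rats had 7.34, 7.44 and 7.42 and the BDCM rats 6.77, 6.39 and 6.66. Every BDCM rat was below every oil rat, also across the experiments. The mean effect was -0.77 ± 0.07 on the log2 scale (SE, n = 6 rats per treatment; limma adjusted p = 1.96e-05), a level 1.71-fold lower with a 95% confidence interval of 1.53 to 1.90. The other 2 probes gave mean effects of -0.75 ± 0.07 and -0.87 ± 0.08 (SE; limma adjusted p = 1.95e-05 and 1.85e-05). By experiment, the log2 effect on probe 1 was -0.76 with CO2-O2 and -0.79 with isoflurane, and the difference of -0.04 had a 95% interval of -0.35 to 0.28. Within slide 1, which held 3 oil rats and 1 BDCM rat, the log2 difference was -0.75, and within slide 4, with 1 oil rat and 2 BDCM rats, it was -0.84.

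In bulk tissue, fewer cells of a type and less RNA per cell cannot be told apart. Beside the lower Slc5a2, all 8 proximal tubule markers were lower with BDCM (8 called lower, 0 higher), against 20.9% and 19.4% of named genes. The log2 of the summed level of the 8 markers ran from 9.96 to 10.03 in the oil rats and from 9.22 to 9.51 in the BDCM rats under CO2-O2, and from 10.2 to 10.3 and from 9.16 to 9.76 under isoflurane. Lrp2, which encodes the endocytic receptor megalin, had a mean effect of -0.64 (limma adjusted p = 0.000498). Havcr1, encoding the injury protein Kim-1, had a mean effect of 4.69 ± 0.50 on the log2 scale (n = 6 per treatment, SE; limma adjusted p = 7.1e-05). Of the 5 injured tubule markers tested, 2 were higher and 0 lower, against 19.4% and 20.9% of named genes. The part of these shifts in the carriers' effects was not tested.

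Slc5a1 encodes SGLT1, which takes up the glucose left in the late proximal tubule. Its probe 1 levels under CO2-O2 were -1.95, -1.64 and -2.05 in oil rats and -2.34, -2.41 and -2.62 in BDCM rats, log2 scale. Under isoflurane they were -1.58, -2.48 and -2.28 in oil rats and -2.04, -2.43 and -2.53 in BDCM rats. The groups were separate in the first experiment and overlapped in the second, on both probes. Probe 2 was called for the mean effect (-0.46 ± 0.11, SE, n = 6 per treatment; limma adjusted p = 0.00939), and probe 1 was not (-0.40 ± 0.16, SE; limma adjusted p = 0.0711). On probe 2 the log2 effect was -0.67 with CO2-O2 (limma adjusted p = 0.0169) and -0.25 with isoflurane (limma adjusted p = 0.275); the difference of 0.41 had a 95% interval of -0.09 to 0.92, so the experiments were not shown to differ. The CO2-O2 call on probe 2 was lost without oil rat 1 (adjusted p = 0.0613), oil rat 2 (0.0566) or BDCM rat 2 (0.0581) of that experiment, and with scan day (0.0652) or slide (0.0937) as a block, at a log2 effect of -0.80 in both; the mean-effect call was lost with slide as a block (0.0912). Probe 1 passed for the mean effect without isoflurane oil rat 2 (limma adjusted p = 0.0334) or isoflurane BDCM rat 1 (0.0444), and for the CO2-O2 effect without isoflurane oil rat 1 (0.0346). Isoflurane rats do not enter the CO2-O2 effect, which stayed at -0.58.

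Slc5a10 encodes SGLT5, a kidney carrier for mannose and fructose. Its probe gave log2 levels of 4.00, 4.04 and 3.76 in oil rats and 2.70, 2.38 and 2.68 in BDCM rats under CO2-O2. Isoflurane rats had 3.35, 3.04 and 3.17 with oil and 1.43, 1.92 and 2.72 with BDCM. No BDCM rat reached any oil rat of either experiment, and the isoflurane BDCM rats were the most scattered group (SD 0.65, against 0.15 to 0.18 in the other groups). The mean effect was -1.25 ± 0.19 on the log2 scale (n = 6 per treatment, SE; limma adjusted p = 0.000576), or 2.39-fold lower (95% interval 1.79 to 3.18). Effects by experiment were -1.34 with CO2-O2 and -1.16 with isoflurane (limma adjusted p = 0.00669 and 0.0101), and within slides 1 and 4 the log2 differences were -1.55 and -1.50. Fitted on the isoflurane rats alone, its isoflurane effect missed the threshold (limma adjusted p = 0.0543).

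Slc5a8 encodes SMCT1, which recovers lactate and other short monocarboxylates from the filtrate, and its effect was the largest in size among the 20 probes. Oil rats had log2 levels of 0.97, 0.14 and 0.40 under CO2-O2 and 0.77, 0.75 and 0.19 under isoflurane. BDCM rats had -0.59, -1.39 and -2.28 under CO2-O2 and -1.12, -2.13 and -1.51 under isoflurane. Oil rats were all above 0 and BDCM rats all below it, with BDCM rats spread more widely (SD 0.85 and 0.51, against 0.42 and 0.33 in oil rats). The mean effect was -2.04 ± 0.29 on the log2 scale (n = 6 per treatment, SE; limma adjusted p = 0.000455), which is 4.11-fold lower with a 95% interval of 2.62 to 6.43. By experiment the effects were -1.92 and -2.16 (limma adjusted p = 0.0104 and 0.00431), and within slides 1 and 4 they were -1.89 and -1.82. With slide as a block neither experiment's call was kept (limma adjusted p = 0.12 and 0.162), and with scan day as a block the CO2-O2 call was lost (0.0973); the mean effect was called under all 29 alternatives, with adjusted p from 9.9e-05 to 0.0343.

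Slc5a12 encodes SMCT2, the low-affinity lactate carrier of the early proximal tubule, and its 2 probes disagreed. On probe 1, CO2-O2 rats had log2 levels of 1.69, 1.61 and 1.64 with oil and 1.21, 1.65 and 1.17 with BDCM, and isoflurane rats had 1.94, 1.96 and 1.87 with oil and 1.61, 0.97 and 1.78 with BDCM. On probe 2, CO2-O2 rats had 1.01, 1.10 and 0.92 with oil and 0.85, 1.59 and 1.40 with BDCM, and isoflurane rats had 1.53, 1.30 and 1.47 with oil and 1.42, 1.09 and 1.42 with BDCM. Within each experiment oil rats lay closer together than BDCM rats on both probes, least so on probe 2 under isoflurane (SD 0.12 against 0.19). Probe 1 had a mean effect of -0.38 ± 0.14 (SE, n = 6 per treatment; limma adjusted p = 0.0474), and probe 2 of 0.07 ± 0.12 (SE; limma adjusted p = 0.666), with a 95% interval of -0.20 to 0.35. The call on probe 1 was lost under 20 of 29 alternatives, with adjusted p from 0.0202 to 0.326; these included leaving out any 1 of the 6 oil rats, CO2-O2 BDCM rats 1 or 3, or isoflurane BDCM rat 2. Without CO2-O2 BDCM rat 1, probe 2 was higher with BDCM in that experiment (log2 effect 0.48, limma adjusted p = 0.0291), and without isoflurane BDCM rat 3, probe 1 was lower in the isoflurane experiment (-0.63, limma adjusted p = 0.0441). Within slide 1 the log2 differences of probes 1 and 2 were 0.01 and 0.57, and within slide 4 they were -0.58 and -0.21.

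Myo-inositol enters by Slc5a11 and Slc5a3. Slc5a11 encodes SMIT2, found on the apical face of the proximal tubule. Its probe 1 levels under CO2-O2 were 2.73, 2.87 and 2.68 in oil rats and 1.92, 1.88 and 1.48 in BDCM rats, and under isoflurane 2.84, 3.02 and 2.86 in oil rats and 2.31, 1.52 and 2.22 in BDCM rats, all on the log2 scale. Probe 2 gave -0.06, 0.01 and -0.27 with oil and -1.13, -1.11 and -1.53 with BDCM under CO2-O2, and -0.02, -0.07 and 0.15 with oil and -0.60, -1.58 and -0.81 with BDCM under isoflurane. All 6 BDCM rats were below all 6 oil rats on both probes. Mean effects were -0.95 ± 0.14 on probe 1 and -1.08 ± 0.16 on probe 2 (SE, n = 6 per treatment; limma adjusted p = 0.000511 and 0.000515), or 1.93- and 2.12-fold lower. Within slides 1 and 4 the log2 differences of probe 1 were -0.88 and -0.95. As for Slc5a8, the calls by experiment were lost with slide as a block (limma adjusted p from 0.0916 to 0.121) and, under CO2-O2, with scan day as a block (0.0819 and 0.0871), while the mean effect was called under all alternatives of both probes.

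Slc5a3 encodes SMIT1, the myo-inositol carrier that cells induce under osmotic stress. On its probe 1 the CO2-O2 rats had log2 levels of 2.36, 2.67 and 2.76 with oil and 2.68, 2.44 and 2.38 with BDCM, and the isoflurane rats 2.20, 2.15 and 2.00 with oil and 1.72, 1.99 and 2.21 with BDCM. Oil and BDCM rats overlapped in both experiments on all 3 probes. Mean effects were -0.12, -0.07 and -0.15 on the log2 scale, none called (limma adjusted p = 0.385, 0.666 and 0.294), and the 95% intervals together ran from -0.38 to 0.20. Effects as large as those of Slc5a11 lie outside these intervals; no difference between the genes was tested.

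Promoter sequence is shown for Slc5a2 and Slc2a2, whose levels moved in opposite directions, and for Slc5a8, whose level moved furthest. Windows are the 250 bases before the RefSeq start site on assembly GRCr8, found for 9 of the 10 genes, with no entry for Slc5a11. They are chr1:192277371-192277620 (plus strand) for Slc5a2, chr2:113540120-113540369 (plus strand) for Slc2a2 and chr7:25160030-25160279 (plus strand) for Slc5a8, written 5′ to 3′ toward the gene and all in lower case, since they hold neither of the motifs CAAAGTCC and TGGAAA.
Slc5a2: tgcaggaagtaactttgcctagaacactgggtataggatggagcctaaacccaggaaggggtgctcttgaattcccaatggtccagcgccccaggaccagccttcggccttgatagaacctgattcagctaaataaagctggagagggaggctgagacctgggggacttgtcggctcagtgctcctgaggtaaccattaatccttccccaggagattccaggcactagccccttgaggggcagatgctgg
Slc2a2: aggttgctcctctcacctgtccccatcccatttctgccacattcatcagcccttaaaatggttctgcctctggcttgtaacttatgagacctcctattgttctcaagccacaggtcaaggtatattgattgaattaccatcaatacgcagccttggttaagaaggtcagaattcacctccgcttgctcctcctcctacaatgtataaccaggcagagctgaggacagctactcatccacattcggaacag
Slc5a8: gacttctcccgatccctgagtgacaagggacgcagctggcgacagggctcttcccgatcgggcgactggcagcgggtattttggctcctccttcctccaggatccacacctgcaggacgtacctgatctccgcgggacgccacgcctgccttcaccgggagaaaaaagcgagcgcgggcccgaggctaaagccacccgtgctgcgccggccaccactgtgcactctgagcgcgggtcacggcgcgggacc

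The window of Slc5a8 was 66.8% G and C, that of Slc5a2 54.8% and that of Slc2a2 47.2%, against a median of 51.2% over all 33469 promoter windows of the same length. The Hnf4a core CAAAGTCC was in 0 of 9 windows and 1.14% of all, and the core of the osmotic response element, TGGAAA, in 0 of 9 and 19.7%, each searched on both strands. A missing match says only that these letters are not in this window.

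Slc2a2 encodes GLUT2, the basolateral carrier by which glucose leaves the early proximal tubule cell, and also the main glucose carrier of hepatocytes. Its probe 1 had log2 levels of 3.58, 3.40 and 3.50 in oil rats and 4.18, 4.75 and 4.28 in BDCM rats under CO2-O2. Under isoflurane it had 3.33, 3.49 and 3.44 in oil rats and 4.52, 4.64 and 4.56 in BDCM rats. Oil rats of both experiments lay close together and every BDCM rat was above all of them. Probe 2 rose from 2.05, 2.06 and 1.96 to 2.86, 3.23 and 2.86 under CO2-O2 and from 1.67, 1.64 and 1.69 to 2.90, 3.06 and 2.95 under isoflurane, and on probe 3, too, all 6 BDCM rats were above all oil rats. Mean effects were 1.03 ± 0.09, 1.13 ± 0.07 and 1.08 ± 0.07 on the log2 scale (n = 6 per treatment, SE; limma adjusted p = 2.12e-05, 2.47e-06 and 2.46e-06), or 2.04-, 2.19- and 2.11-fold higher. The isoflurane effect of probe 2 was 1.30 and the CO2-O2 effect 0.96; their difference of 0.34 (95% interval 0.02 to 0.67) did not pass over all probes (limma adjusted p = 0.944), and for probes 1 and 3 the differences were 0.24 and 0.13. Within slides 1 and 4 the log2 differences of probe 1 were 1.26 and 1.13.

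Because hepatocytes also express Slc2a2, its levels were set beside the liver markers. The isoflurane BDCM rats with the highest and the lowest Alb levels of their group (-0.69 and -8.07, log2 scale) had probe 1 levels of 4.52 and 4.56. The level of -8.07 was below -6.06, the lowest level well above background on that array. Of the 9 hepatocyte markers tested, 2 were higher and 2 lower with BDCM, against 19.4% and 20.9% of named genes. Alb had a mean effect of 0.45 (limma adjusted p = 0.786). The log2 of the summed level of the 9 markers ran from 4.05 to 4.75 in oil rats and from 4.69 to 4.97 in BDCM rats under CO2-O2, and from 3.87 to 4.01 and from 4.03 to 4.37 under isoflurane. With Alb as a covariate the mean effects of the 3 probes were 1.03, 1.13 and 1.08, all called. Alb was not well above background on every array. Without isoflurane BDCM rat 1 and oil rat 3 the mean effects were 1.05, 1.15 and 1.10, again all called. That fit kept the CO2-O2 rats, whose Alb levels reached 1.66. The part of liver tissue in the Slc2a2 effect was not tested.

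**Figure D2:**
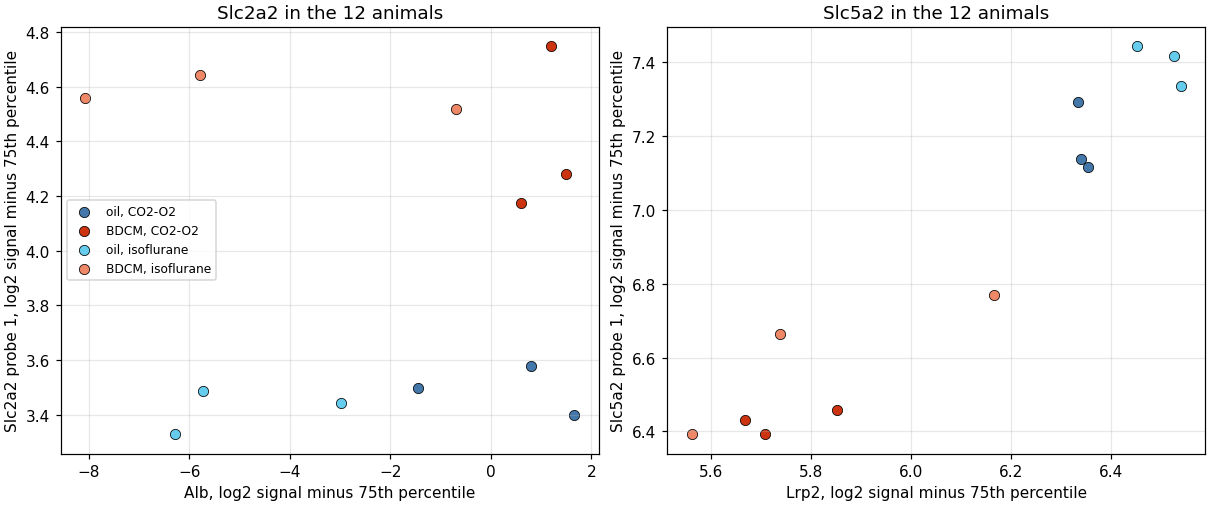
Left, Slc2a2 probe 1 against Alb; right, Slc5a2 probe 1 against Lrp2, both axes as log2 signal minus the array's 75th percentile and 1 point per rat in the colour of its group. BDCM rats have the higher Slc2a2 level at low and at high Alb, and the BDCM rats are lower than the oil rats in both Slc5a2 and Lrp2.

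Slc2a1 encodes GLUT1, the widely expressed basal glucose carrier. Under CO2-O2 the log2 levels were 1.48, 1.57 and 1.58 in oil rats and 1.97, 1.72 and 1.76 in BDCM rats, and under isoflurane 0.93, 1.34 and 1.14 in oil rats and 1.40, 1.59 and 1.34 in BDCM rats. The groups did not overlap within either experiment, while 2 of the 3 isoflurane BDCM rats lay below all CO2-O2 oil rats. Under isoflurane the margin was slight, with oil rat 2 at 1.337 and BDCM rat 3 at 1.342. The mean effect was 0.29 ± 0.08 on the log2 scale (n = 6 per treatment, SE; limma adjusted p = 0.018), or 1.23-fold higher (95% interval 1.08 to 1.39). Neither experiment alone passed (0.28 and 0.31; limma adjusted p = 0.124 and 0.0778). The mean-effect call was lost with slide as a block (0.176), with scan day as a block (0.0864), and when isoflurane BDCM rat 1 and oil rat 3 were both left out (0.0502). Without isoflurane oil rat 2 the isoflurane effect passed (0.41, limma adjusted p = 0.0397).

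Slc2a5 encodes GLUT5, a fructose carrier of the proximal tubule's apical face. Probe 1 log2 levels under CO2-O2 were 2.80, 2.77 and 2.12 with oil and 1.94, 2.08 and 1.45 with BDCM, and under isoflurane 1.86, 1.31 and 1.29 with oil and 1.55, 1.19 and 1.84 with BDCM. CO2-O2 oil rats were the highest and the other 3 groups overlapped. The mean effects of its 2 probes were -0.35 ± 0.18 and -0.34 ± 0.19 (SE, n = 6 per treatment; limma adjusted p = 0.149 and 0.186). On probe 1 the CO2-O2 effect was -0.74 (limma adjusted p = 0.0663) and the isoflurane effect 0.04 (limma adjusted p = 0.934), and their difference of 0.78 had a 95% interval of -0.02 to 1.58. Without CO2-O2 oil rat 3 the CO2-O2 effect was called on both probes (-0.96 and -0.94; limma adjusted p = 0.0399 and 0.0481). Within slides 1 and 4 the log2 differences of probe 1 were -0.48 and 0.07.

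Counted by experiment, 11 of 20 probes were called under CO2-O2 (3 higher, 8 lower; 19.8% of all probes called, 9.86% higher and 9.89% lower) and 10 of 20 under isoflurane (3 higher, 7 lower; 25.9% of all, 13.1% higher and 12.7% lower). Groups did not overlap on 14 of 20 probes under CO2-O2 and 12 under isoflurane, against 39.5% and 43.1% of all probes. In both experiments without overlap, BDCM rats were lower on 7 probes and higher on 4, against 13.0% and 13.5%. The 7 were all probes of Slc5a2, Slc5a8, Slc5a10 and Slc5a11, and the 4 were the probes of Slc2a1 and Slc2a2. No probe was called for a difference of effects between the experiments (0 of 20 by limma, 0.00% of all probes; 1 of 20 and 4.91% at an unadjusted p under 0.05), with member adjusted p from 0.944 to 0.999.

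BDCM rat 1 and oil rat 3 were the isoflurane rats highest in liver transcripts. Without them, and with all CO2-O2 rats kept, 11 of 20 probes were called for the mean effect and 10 under isoflurane. The calls lost for the mean effect were those of Slc2a1 and of Slc5a12 probe 1 (-0.44, limma adjusted p = 0.072). Slc5a2 then had log2 mean effects of -0.81, -0.79 and -0.92, Slc5a8 of -2.25, Slc5a10 of -1.11 and Slc5a11 of -1.03 and -1.15, all called (limma adjusted p from 0.000134 to 0.00167). Slc5a1 had -0.51 on probe 1 (limma adjusted p = 0.0522) and -0.53 on probe 2 (0.00931). Slc5a3 (-0.09, 0.04 and -0.06), Slc2a5 (-0.41 and -0.40) and Slc5a12 probe 2 (0.06) were not called, with limma adjusted p from 0.184 to 0.799.

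**Figure D3:**
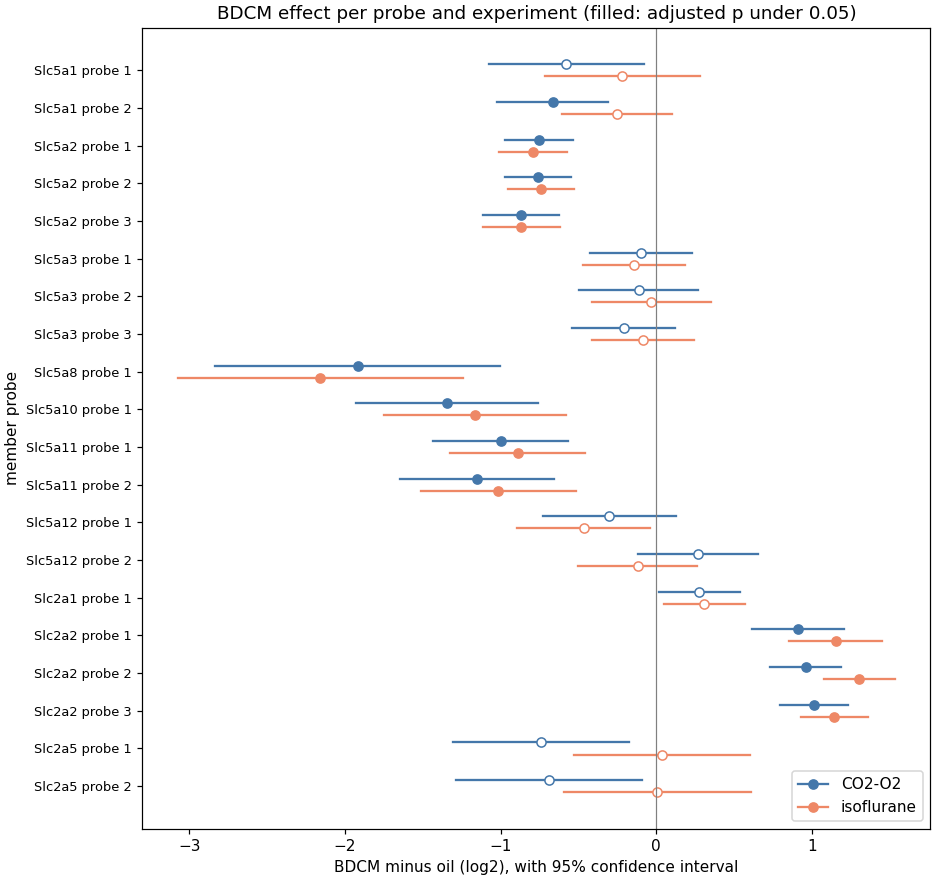
Each row is 1 probe, with its BDCM effect (BDCM minus oil, log2) in the CO2-O2 and the isoflurane experiment as points with 95% confidence intervals; filled points have a limma adjusted p under 0.05. Slc5a2, Slc5a8, Slc5a10 and Slc5a11 are filled to the left of 0 in both experiments and Slc2a2 to the right, while Slc2a5 lies left of 0 with CO2-O2 and at 0 with isoflurane.

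Among oil controls, isoflurane rats were compared with CO2-O2 rats. Only Slc2a5 was called, lower on both of its probes (2 of 20 member probes, against 10.6% of all, 6.96% higher and 3.63% lower): log2 differences of -1.08 ± 0.25 and -1.04 ± 0.27 (SE, n = 3 per group; limma adjusted p = 0.0255 and 0.0365). Its 3 isoflurane oil rats were below its 3 CO2-O2 oil rats. The call was lost on both probes with Alb as a covariate (limma adjusted p = 0.186 and 0.189), without isoflurane BDCM rat 1 and oil rat 3 (0.11 and 0.147), and without CO2-O2 oil rat 1 (0.0932 and 0.125), CO2-O2 oil rat 2 (0.0937 and 0.119), isoflurane oil rat 2 (0.0881 and 0.111) or isoflurane oil rat 3 (0.0841 and 0.117). Slc5a10, at -0.74 (limma adjusted p = 0.103), Slc5a3 on probe 1, at -0.48 (0.0633), and Slc2a1, at -0.40 (0.0529), did not pass. Leaving out 1 rat brought a few of these past the threshold: Slc2a1 without CO2-O2 BDCM rat 1 (adjusted p = 0.0494), isoflurane oil rat 2 (0.0431) or isoflurane BDCM rat 2 (0.0464), Slc5a10 without isoflurane BDCM rat 1 (0.0456) or 3 (0.0204), and Slc5a3 probe 1 without isoflurane BDCM rat 1 (0.048). The same held for Slc5a3 probe 3 (0.0416) and Slc5a12 probe 2 (0.0487) without CO2-O2 BDCM rat 1, and for Slc2a2 probe 2 without CO2-O2 BDCM rat 2 (0.0126), all by limma. BDCM rats do not enter the difference between oil controls. Leaving out a BDCM rat kept that difference as it was and changed only the estimated spread and the adjustment. Oil groups did not overlap on 11 of 20 probes, against 38.5% of all probes.

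Other genes of the pathway were read from lists with 1 probe per gene, the brightest. Of the other Slc5 and Slc2 genes, 1 of 9 tested was called for the mean BDCM effect, against 40.3% of named genes: Slc2a4, the insulin-responsive carrier GLUT4, rose, with a log2 effect of 0.84 ± 0.20 (n = 6 per treatment, SE; limma adjusted p = 0.00767). The other 8 did not pass, and the list's median effect was 0.05.

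Of the Slc16 family, proton-linked and facilitative monocarboxylate carriers, with their chaperones Bsg and Emb, 9 of 14 were lower and 0 higher, against 20.9% and 19.4% of named genes, with a median effect of -0.29 (all probes -0.04). Slc16a4 had a mean effect of -1.35, Slc16a14 of -1.23 and Slc16a11 of -1.07 (limma adjusted p = 0.000425, 0.000166 and 9.86e-05). Bsg, which carries Slc16 proteins to the membrane, was lower by little (-0.18, limma adjusted p = 0.0372). Slc16a1, encoding the lactate carrier MCT1, had an effect of -0.22 (limma adjusted p = 0.425). Lower monocarboxylate carriers included Slc5a8 on the apical side and several of the Slc16 family.

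Scaffolds, the Na+ pump and transcription factors of the carriers were lower for 7 of 14 and higher for 0, against 20.9% and 19.4% of named genes, with a median effect of -0.35. Pdzk1, an apical scaffold, had a mean effect of -0.65 (limma adjusted p = 0.000453). Slc9a3, the apical Na+/H+ exchanger, had -0.51 (limma adjusted p = 0.0287), and its other probes had -0.28 (0.172) and -0.29 (0.0109). Hnf4a had -0.69 (limma adjusted p = 0.0154). Pdzk1ip1 (MAP17), the partner protein that SGLT2 needs for activity, had -0.03 (limma adjusted p = 0.79), so its level did not pass the test while that of Slc5a2 did; the genes' difference was not tested.

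Among genes of myo-inositol and osmolyte handling, 3 of 8 rose and 3 fell, against 19.4% and 20.9% of named genes, with a median of -0.14. Isyna1, which makes inositol from glucose 6-phosphate, had a mean effect of 1.56 ± 0.22 (SE; limma adjusted p = 0.000463), Akr1b1, the aldose reductase that makes sorbitol, of 1.25 ± 0.23 (0.00225), and Impa2, an inositol monophosphatase, of 0.50 ± 0.07 (0.000361). Miox, the renal enzyme that breaks inositol down, had -0.76 on its brightest probe and -1.59 on another (limma adjusted p = 0.000562 and 0.000117). Slc6a12, the betaine carrier, had -0.28 (0.00312; -0.41 and 0.096 on another probe), and Impa1 had -0.15 (0.0251; -0.07 and 0.445 on another probe). Beside the inositol carriers, Slc5a11 was lower together with Miox, and Slc5a3 was not called.

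Sugar-using enzymes downstream of the carriers were lower for 10 of 20 and higher for 1, against 20.9% and 19.4% of named genes, with a median of -0.24. G6pc1, the last step of glucose release, had a mean effect of -0.86, Tkfc and Khk, kinases of fructose breakdown, had -0.84 and -0.75 (limma adjusted p = 0.00143, 0.000134 and 0.000266), and Pmm1, a phosphomannomutase, had 0.46 (0.00815). Over the 5 lists together 34 of 65 genes were called, against 40.3% of named genes.

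**Figure D4:**
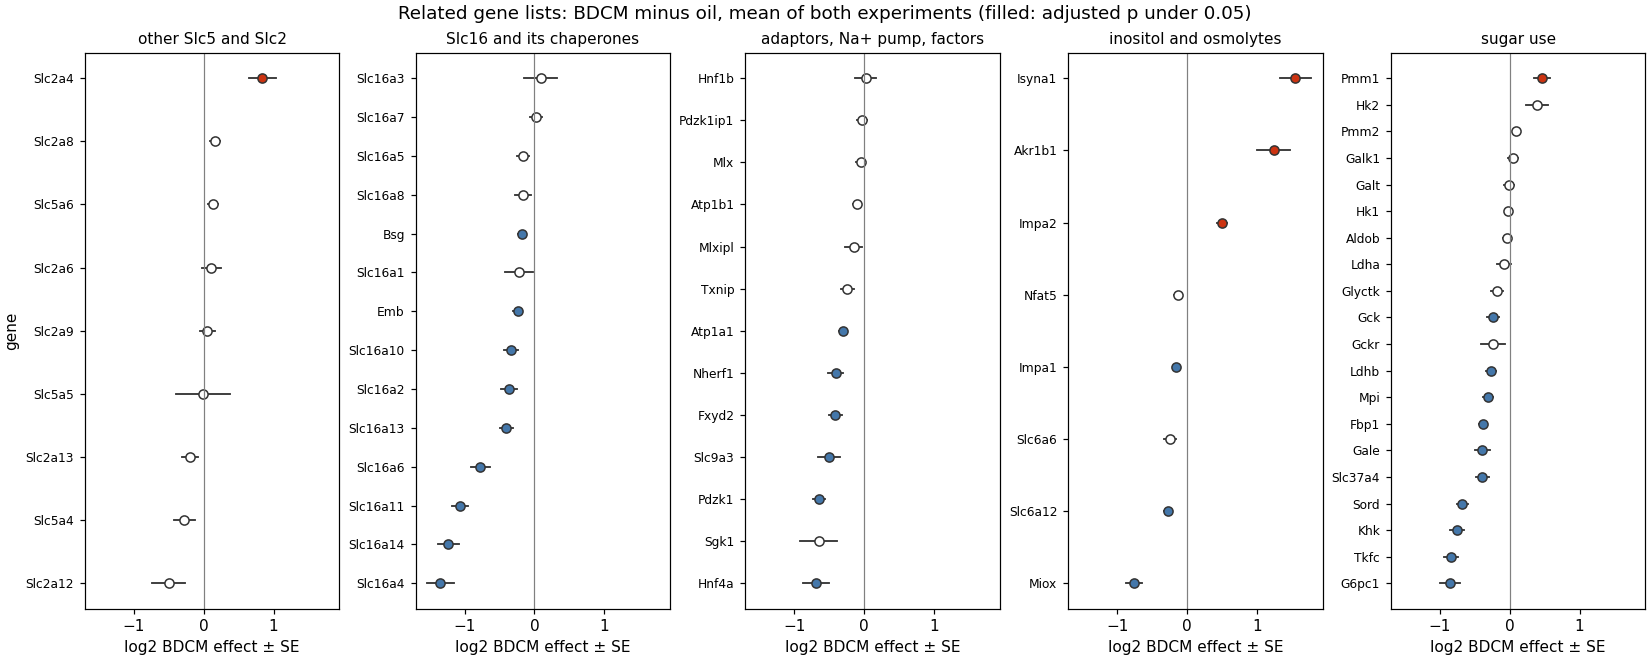
Each panel is 1 gene list, with the mean BDCM effect of each gene over both experiments (log2, 1 probe per gene) and its SE as a bar; red points are called higher and blue points lower at a limma adjusted p under 0.05, and open points did not pass. Slc2a4 is the 1 called gene of the first panel, the Slc16 and scaffold panels hold no red point, and the inositol panel holds both colours; 1 gene of the third list is not drawn.

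For 9 of the 10 members, the gene whose centred profile over the 12 arrays was most like that of its brightest probe was sought among 19585 probes of other genes, by the root-mean-square difference in log2 level. The nearest was Prkag3 for Slc5a2 (0.0796), Gcdh for Slc5a11 (0.0978), Nlrp6 for Slc5a8 (0.27), Ggct for Slc5a10 (0.24), Rpl5 for Slc2a2 (0.104) and Ptges3l1 for Slc2a1 (0.0835). It was Spry4 for Slc5a12 (0.0657), Wdr35 for Slc5a3 (0.119) and Or6z5 for Slc2a5 (0.173). The 3 nearest probes of Slc5a10 were all of Ggct, and of the 3 nearest probes of Slc5a8, 2 were of Nlrp6 and the third was of Dio1 (0.344). All 12 arrays share the BDCM and experiment groups, so such likeness is a description of these rats.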

How the data were processed

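Renal cortex RNA of 12 rats was measured on 12 single-colour arrays. Spot intensity was read by the authors with Feature Extraction (10.7 in the submitters' processing notes, 10.7.1.1 in the scanner output), background-subtracted and detrended array by array, per the file headers. A second deposited file gives every spot as a ratio of the processed intensity to the 75th percentile of its array. Its 6 isoflurane columns equal their own scanner files and its 6 CO2-O2 columns equal another rat of the same group (17800 probes compared), so it served only as an alternative.

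Levels are log2 of processed intensity over the 75th percentile of the same array. Probes were named through RefSeq accessions (RefSeq genes of GRCr8; 27460 of 33356 matched 1 symbol; the design refers to rn4), and 84 spike-in probes and spots flagged as outliers (71 missing values, 0 in the members) were left out. Each of 43275 probes well above background on all 3 arrays of a group was fitted with 1 mean per group (limma 3.58.1, R 4.3.3, package data.table, version 1.17.8; adjusted p after Benjamini and Hochberg). With 3 arrays per group, their number limits the precision. The steps were tested on simulated data; figures used matplotlib 3.10.9 in Python 3.11.15. Alternatives varied the scaling, the background correction (normexp, offset 50, on median spot signals), the filter, the probe choice, weights, blocks, an Alb covariate and the rats included.

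Named genes are all members, up to 3 called genes per direction and list whose groups do not overlap, the nearest gene of each member, and a few set genes (Hnf4a, Pdzk1ip1, Slc16a1, Bsg, Lrp2, Havcr1, Alb). Some items under this rule are not reported here. Members and lists were chosen with earlier results of these data known. For the marker counts that follow, 19.4% of named genes were called higher and 20.9% lower for the mean BDCM effect. Cell type lists not described in the results gave these counts of markers tested, higher and lower: thick ascending limb 3, 0 and 1; distal tubule and collecting duct 7, 1 and 2; podocyte 5, 0 and 4; endothelium 5, 0 and 2; leukocyte 5, 0 and 0; erythroid 4, 0 and 3; adipocyte 2, 0 and 1.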

Additional observations from a re-analysis of the deposited data

How the results depend on the processing

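Of 2780 member values under alternatives, 2679 kept their side of the threshold, 46 gained a call, 55 lost one and 0 changed sign where called. The 2679 include uncalled values whose sign changed. For Slc5a3 probe 2 the log2 mean effect went from -0.07 to 0.04 without isoflurane BDCM rat 1 and oil rat 3. Slc5a2 and Slc2a2 were called on all probes in both experiments and for the mean under every alternative run. With 1 probe per gene or the mean of a gene's probes, 7 and 7 of 10 genes were called for the mean effect, 5 and 6 under CO2-O2, 5 and 5 under isoflurane, and 1 and 1 between oil controls; fewer features were then tested. With a fixed block for slide, or for scan day, 7 and 7 of 20 probes were called under CO2-O2, where 1 BDCM rat shares a slide with the oil rats. The shares of all probes given in the results do not apply to counts under alternatives.

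The count of 2 between oil controls moved most: 4 with quantile and 6 with median scaling, 1 with no filter, 4 with the filter on all 12 arrays, 7 with array weights, 5 with only the groups compared, 1 with slide as a random block, 0 with Alb as a covariate, 0 without isoflurane BDCM rat 1 and oil rat 3, and 0 to 5 leaving out 1 rat in turn (0 without CO2-O2 oil rat 1 or 2 or isoflurane oil rat 3, 1 without isoflurane oil rat 2, 5 without CO2-O2 BDCM rat 1). The cause was not tested.

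Same-numbered oil and BDCM rats did not deviate together (correlations of deviations -0.03 to 0.06). With the rats' numbers as a replicate block, 13, 13, 10 and 0 of 20 probes were called for the mean, CO2-O2, isoflurane and difference, and 31 of 65 list genes. Block by the value table's numbers, chosen after seeing the data, gave the same counts. The control contrast could not be fitted with fixed blocks, which lie within experiments, and all groups enter the mean and difference.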
